A study of Mus musculus with 4 samples.

Results

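The genes described here are 9 markers that the vascular field uses for pericytes and smooth muscle cells, namely Acta2, Tagln, Myh11, Cnn1, Myl9, Cspg4, Mcam, Rgs5 and Des. They were picked out of the count table by gene symbol, and each of the 9 symbols was found in 1 row of the 56980 genes listed. Their transcripts were measured in 4 bulk RNA-seq libraries of bone marrow mesenchymal stromal cells (MSCs) that form a single group. Each library came from 100 sorted cells of a separate wild-type male C57BL/6J mouse, aged 14 weeks and kept in a colony inbred in-house. Cells were released from flushed and enzymatically digested femurs and sorted as CD45- Ter119- CD31- CD51+ PDGFRα+ Sca1-, without any antigen from the marker set. The study read these libraries for ligands and receptors through which stromal cells could meet macrophages. Because all libraries share genotype, age, sex and sort, the data hold no contrast between conditions, and levels are described with their spread over mice. In bulk libraries, fewer cells of a type and less RNA per cell cannot be told apart.

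Smooth muscle cells and pericytes are the mural cells that wrap blood vessels. Smooth muscle cells of arteries and arterioles contract through smooth muscle myosin sliding on actin, a motion switched on by phosphorylation of the myosin regulatory light chain and restrained by calponin. Pericytes sit in the basement membrane of capillaries and are usually recognized by surface NG2 (Cspg4), CD146 (Mcam) and PDGFRβ and by the signalling regulator Rgs5, while their content of contractile proteins varies along the vessel. In bone marrow, cells with mural or perivascular features have been described around arterioles and sinusoids, where stromal cells also supply factors that maintain hematopoietic stem cells.

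The libraries held between 22738604 and 43545349 counted read pairs and between 16109 and 18907 genes above 0. At these depths the detection floor of 3 counts amounted to 0.0689 to 0.132 CPM (a library's counts scaled to the same total). The sorted antigens were present as transcripts, with 39.8 ± 7.29 TPM (transcripts per 1000000 transcripts, a level scaled for gene length; SD, n = 4) for Pdgfra and 15.7 ± 2.51 TPM for Itgav, which encodes CD51. Of the antigens sorted against, Pecam1 (CD31) had 13, 11, 5 and 14 counts in mice 1 to 4, Ptprc (CD45) had 2, 2, 0 and 50, and Ly6a (Sca1) had 1, 120, 0 and 144. All 6 marrow niche stroma markers (Cxcl12, Lepr, Ebf3, Foxc1, Kitl, Adipoq) and all 5 osteoblast markers (Bglap, Ibsp, Sp7, Alpl, Col1a1) exceeded 1 TPM in every mouse, against 30.1% of protein-coding genes. The osteoblast markers summed to between 100027 and 196750 TPM.

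Levels of the mural markers ran from a median of 82.2 TPM for Myl9 to no count at all. With 9 genes, the numbers on either side lay near the shares over all protein-coding genes given beside them. A median above 1 TPM, the level that the study's methods take as expressed, was reached by 3 of the 9 genes (Myl9, Cspg4 and Rgs5), against 44.2% of all protein-coding genes. Myl9 was the single member above 1 TPM in each of the 4 mice, which 30.1% of protein-coding genes were, and without mouse 2 Cspg4 joined it, making 2. At the other end, 4 members (Tagln, Acta2, Cnn1 and Mcam) stayed under 3 counts in every library, against 37.3% of protein-coding genes, and 3 of those (Acta2, Cnn1 and Mcam) had no count at all, against 29.4%. The summed level of the 9 genes was 48.2, 150, 160 and 15.3 TPM in mice 1 to 4, and Myl9 made up most of it in the first 3 mice.

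**Figure D1:**
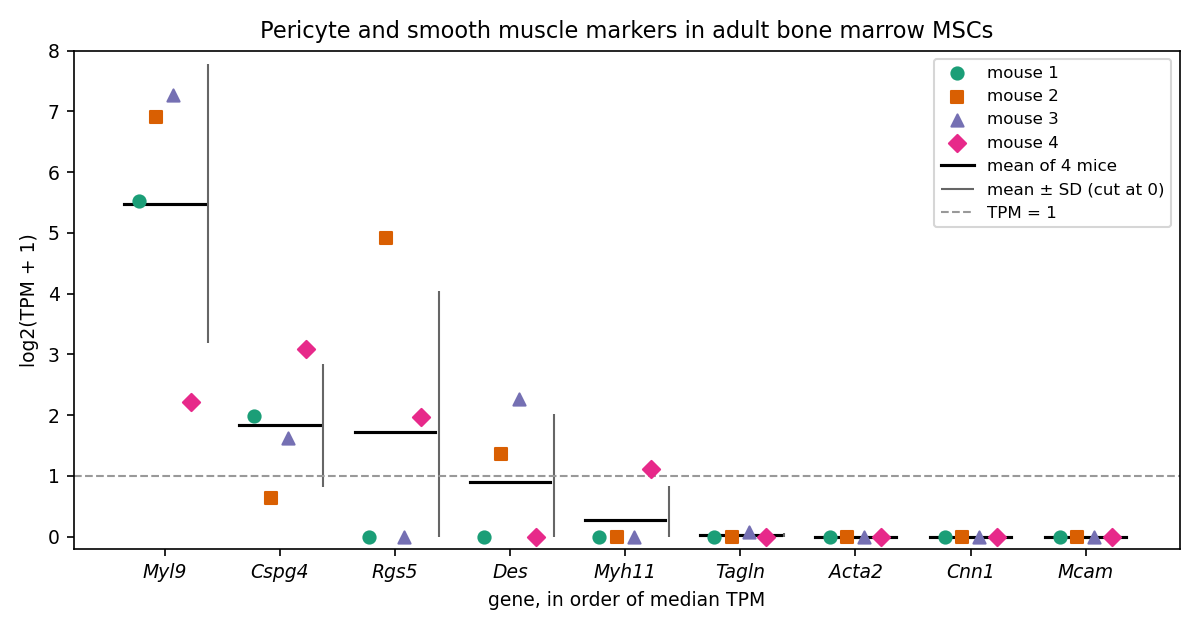
The level of each of the 9 markers is plotted for each of the 4 mice on a log2(TPM + 1) axis with 1 symbol a mouse, a horizontal bar for the mean, a vertical line for the mean ± SD (ending at 0) and a dashed line at 1 TPM. Myl9 lies above 1 TPM in all 4 mice, Cspg4 in 3, Rgs5 and Des in 2 each and Myh11 in 1, whereas Tagln, Acta2, Cnn1 and Mcam lie at or next to 0.

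Members that build the contractile apparatus were described first. Acta2 encodes smooth muscle α-actin, the most widely used mural marker (GENCODE M21 on GRCm38, as for all positions of genes here, chr19:34241090-34255590, minus strand, 9 exons). It had 0 counts in all 4 libraries, which allows at most 0.0777 to 0.132 TPM depending on depth. Cnn1 encodes calponin 1, an actin-binding brake on contraction (chr9:22099216-22109630, plus strand, 7 exons), and it too had 0 counts in all 4 libraries, which allows at most 0.0623 to 0.106 TPM. Both genes were thus below detection rather than shown to be silent. No stretch of 100 bases or more in the longest transcript of either gene was at least 95% identical to a transcript of another gene, a search made because read pairs without a unique position were not counted. The detection limits here cover counting error only, since reads were amplified without molecular identifiers.

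Tagln encodes transgelin (SM22α), an actin-bundling protein of smooth muscle (chr9:45929619-45936058, minus strand, 5 exons). It had 0, 0, 2 and 0 counts in mice 1 to 4, so that every library was under the floor of 0.0858 to 0.146 TPM. This low count carries a limit from the annotation, because 67.9% of the exonic bases of Tagln also lie in exons of genes on the opposite strand. The predicted gene Gm48529 covers 1241 of them and had 0, 0, 40 and 11 counts, and the protease gene Pcsk7 covers 5.43% of all exonic bases and had 69, 987, 780 and 847 counts. Without strand information, read pairs that touch 2 genes are normally given to neither, and the part of this in the Tagln count was not tested. No such overlap was found for Acta2, Cnn1, Myh11, Myl9, Cspg4 or Rgs5, and it took up 0.507% of exonic bases in Mcam and 5.86% in Des.

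Myh11 encodes the smooth muscle myosin heavy chain, the motor protein regarded as the most specific smooth muscle marker (chr16:14194535-14291372, minus strand, 41 exons). It had 0, 0, 0 and 92 counts, or 1.17 TPM in mouse 4 and under the floors of 0.0224 to 0.0355 TPM in the others. Of the 5 members with at least 10 counts anywhere, Myh11 was the 1 that reached that number in exactly 1 library, against 15.9% of protein-coding genes. Such single-library genes numbered 2090, and 38.1% of them were found in mouse 4, compared with 20.4%, 12.1% and 29.4% in mice 1 to 3. The mouse that held Myh11 was therefore also the library with the most genes of this kind.

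Des encodes desmin, the intermediate filament of muscle that also marks pericytes (chr1:75360329-75368579, plus strand, 9 exons). Its counts were 0, 66, 247 and 0, corresponding to 1.58 TPM in mouse 2 and 3.81 TPM in mouse 3. The mean was 1.35 ± 1.80 TPM (SD, n = 4), or 0.527 TPM without mouse 3, with a coefficient of variation of 134%. Protein-coding genes with a mean within 2-fold of that of Des had a median coefficient of variation of 120%, and 58.5% of the 2549 such genes varied less than Des. Desmin was thus about as uneven between mice as other genes of its level.

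Myl9 encodes a regulatory light chain of smooth muscle myosin (chr2:156775420-156781658, plus strand, 4 exons) and was the most abundant member. It had 925, 1540, 3093 and 44 counts in mice 1 to 4, or 45.2, 119, 154 and 3.66 TPM. With a median of 82.2 TPM, it ranked above 95.2% of protein-coding genes. Mouse 4 stood well below the other 3 mice, and the coefficient of variation of 85.0% compared with a median of 34% over 1366 genes of like mean, 95.5% of which varied less. The order of mice for Myl9, with mouse 3 highest, then 2, 1 and 4, was shared by Tagln2 among 11 non-muscle relatives, by Tpm2 and Pdlim7 among 16 other smooth muscle genes, by none of 14 other pericyte genes, by the regulators Mrtfb and Tead1, and by 5.27% of the 9684 protein-coding genes with a median above 1 TPM. Without mouse 4, Myl9 ranged from 45.2 to 154 TPM.

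Smooth muscle genes are textbook targets of serum response factor, which binds the CArG box, a 10-base element of CC, then 6 A or T bases, then GG. The promoters in RefSeq (GRCm38.p6) were searched for it over the 250 bases before each start site. The element reads the same class of letters on both strands, so 1 search covers both. Exact CArG boxes were found in 1.47% of all 32851 promoters, and 8.59% held one when at most 1 of the 6 inner bases could be G or C. Promoters were matched for 7 of the 9 members (Tagln and Myh11 were not matched), and Myl9 was the 1 with an exact box while Myl9 and Acta2 had matches under the looser rule. The windows below set the most abundant and an undetected member beside 2 abundant relatives, Cnn2 and Actg1, with the matched letters in capitals and 5′ to 3′ along the gene's own strand.
Myl9 exact box, chr2:156775293-156775322, plus strand: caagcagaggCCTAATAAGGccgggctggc
Myl9 looser match, chr2:156775355-156775384, plus strand: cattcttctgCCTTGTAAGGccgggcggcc
Acta2 looser match, chr19:34255438-34255467, minus strand: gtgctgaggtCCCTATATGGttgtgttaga
Acta2 looser match, chr19:34255388-34255417, minus strand: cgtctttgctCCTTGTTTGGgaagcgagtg
Cnn2 exact box, chr10:79988534-79988563, plus strand: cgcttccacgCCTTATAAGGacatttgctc
Actg1 exact box, chr11:120348566-120348595, minus strand: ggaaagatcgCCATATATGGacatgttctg
The Myl9 box starts 161 bases before the RefSeq start and its looser match 99 bases before. The Acta2 matches start 84 and 34 bases before the RefSeq start, inside the first exon as GENCODE draws it. A run of letters is a description of the promoter, and these libraries hold no measurement of binding. Matching elements stood before both a gene of 80.5 TPM and a gene without a count. Of the 10 relatives matched, 3 had an exact box (Actg1, Cnn2 and Myl6), and among 15 matched genes of the smooth muscle list none had an exact box and Synm had a looser match.

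Each contractile member has a close relative that non-muscle cells use for the same job, and in all 6 pairs the relative was the more abundant transcript in 4 of 4 mice. With 4 mice the exact two-sided sign-flip permutation test cannot give a p below 0.125, which is what each pair reached (0.125 also after Benjamini-Hochberg adjustment over the 6 pairs), so none can pass 0.05 by design. The sizes of the differences are therefore given pair by pair.

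Cytoplasmic β-actin (Actb) had 1011, 967, 1310 and 801 TPM in mice 1 to 4, whereas Acta2 was listed at 0. Set against the 3-count floor, Actb was at least 6062-fold to 16574-fold higher, depending on the mouse. On the log2(TPM + 1) scale Acta2 minus Actb was -9.98 ± 0.29 (SD, n = 4), an SD that comes from Actb alone. The other cytoplasmic actin, Actg1, averaged 371 ± 63.5 TPM, with the reservation that 57.8% of its longest transcript is near-identical to transcripts of other loci. The other muscle actins were at or near the floor too, with 4, 0, 5 and 2 counts for skeletal Acta1 and none for cardiac Actc1 or enteric Actg2.

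Tagln2, the transgelin of non-muscle cells, had 64.1, 180, 247 and 54.7 TPM and was at least 374-fold to 2827-fold above the floor of Tagln. For the calponins, Cnn2 averaged 707 ± 163 TPM and Cnn3 55.0 ± 35.8 TPM, of which Cnn3, the partner fixed for the test, was at least 248-fold to 1133-fold above the floor of Cnn1. Near-identical copies cover 55.1% of the longest Cnn3 transcript, so its level is uncertain. Within the summed calponins, which came to 616 to 986 TPM, the smooth muscle form had no share in any mouse. Log2(TPM + 1) differences were -6.80 ± 1.04 for Tagln minus Tagln2 and -5.56 ± 0.99 for Cnn1 minus Cnn3.

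The myosins showed smaller gaps. Non-muscle heavy chain Myh9 had 3.77, 14.5, 8.42 and 6.09 TPM, at least 168-, 409- and 368-fold above the floor of Myh11 in mice 1 to 3 but 5.19-fold above Myh11 itself in mouse 4. There, Myh11 made up 14.7% of the summed Myh9, Myh10 and Myh11 transcripts, and the difference over all mice was -2.79 ± 1.0 on the log2(TPM + 1) scale. Among light chains, Myl12a had 142, 141, 176 and 98.4 TPM, so that it exceeded Myl9 3.14-fold, 1.18-fold, 1.14-fold and 26.8-fold. Myl9 accordingly formed 22.7%, 42.5%, 43.8% and 3.11% of the summed Myl9, Myl12a and Myl12b transcripts. Its difference from Myl12a was -1.62 ± 1.98, and without mouse 4 it was -0.68 ± 0.82 (SD, n = 3), so that the SD exceeded the size of the mean either way. The level of Myl12a is itself uncertain, as 33.6% of its longest transcript is near-identical to Myl12b or other loci.

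For the intermediate filaments, vimentin (Vim), the type found in most mesenchymal cells, had 125, 93.1, 215 and 157 TPM. In the mice with desmin, vimentin was 58.9-fold (mouse 2) and 56.5-fold (mouse 3) higher, and in mice 1 and 4 it was at least 2742-fold and 2029-fold above the desmin floor. The log2(TPM + 1) difference of Des minus Vim was -6.24 ± 1.05. Of the 11 non-muscle relatives looked at, 10 exceeded 1 TPM in every mouse, against 30.1% of protein-coding genes. The exception was Myh10 with 136, 2, 0 and 75 counts.

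**Figure D2:**
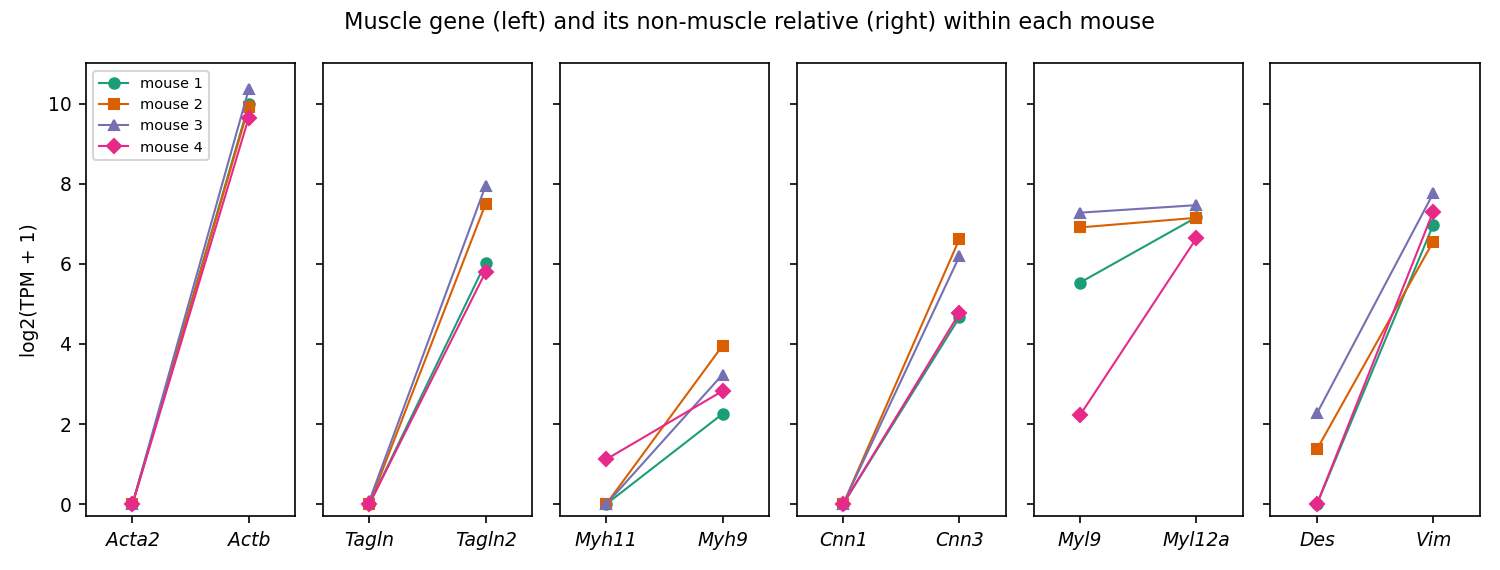
Levels of 6 smooth muscle members and of the non-muscle relative of each are plotted side by side for the 4 mice on a log2(TPM + 1) axis, with a line joining the pair in each mouse. Every line rises from the muscle gene to its relative, and the lines for Myl9 and Myl12a are nearly level in mice 2 and 3 and steep in mouse 4.

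The 2 members that mark the pericyte surface differed, in that NG2 was detected and CD146 was not. Cspg4 encodes NG2, a large chondroitin sulfate proteoglycan of pericytes and of some progenitor cells (chr9:56865033-56899870, plus strand, 10 exons). It had 621, 74, 428 and 924 counts, or 2.96, 0.558, 2.08 and 7.49 TPM, with a mean of 3.27 ± 2.98 TPM (SD, n = 4). It was highest in mouse 4, where Myl9 was lowest, and fell under 1 TPM in mouse 2. Without mouse 4 the mean was 1.86 TPM. The coefficient of variation of 91.2% was near the median of 84.9% over 3564 genes of like mean, and 55.5% of those varied less. Mcam encodes CD146, an adhesion molecule of the immunoglobulin superfamily found on mural and endothelial cells and on human marrow stromal progenitors (chr9:44134469-44142727, plus strand, 16 exons). Mcam had 0 counts in all 4 libraries, which allows at most 0.0509 to 0.0867 TPM. Alcam (CD166), a related adhesion molecule, had 771, 9, 197 and 89 counts.

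Rgs5, the member for intracellular signalling, encodes a regulator that shortens signalling through G proteins and is among the most typical pericyte transcripts (chr1:169655501-169695813, plus strand, 5 exons). It had 0, 1470, 0 and 138 counts, or 29.1 TPM in mouse 2, 2.94 TPM in mouse 4 and under the floors of 0.0375 and 0.0382 TPM in mice 1 and 3. Mice 1 and 3, without a count, had the deepest libraries (43545349 and 42747050 counted read pairs). The mean of 8.0 ± 14.1 TPM was set by mouse 2, without which it was 0.979 TPM, and the coefficient of variation of 176% exceeded that of 98.2% of 3937 genes of like mean, whose median was 64.6%. Of its family, Rgs16 had 0, 687, 164 and 330 counts and thus, like Rgs5, its highest level in mouse 2 and none in mouse 1. Rgs2 had 945, 125, 1562 and 1201 counts and Rgs4 had 0, 0, 207 and 0. Rgs2, a regulator of Gq signalling, was lowest in the mouse in which Rgs5 was highest.

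By median TPM the order of the detected members was Myl9 (82.2), Cspg4 (2.52), Rgs5 (1.47) and Des (0.790), followed by the others at a median of 0. No neighbours in this order passed a test of their difference, which with 4 mice cannot give a p below 0.125. Myl9 minus Cspg4 was 3.65 ± 3.23 on the log2(TPM + 1) scale, with Myl9 higher in 3 of 4 mice (exact two-sided sign-flip permutation test, p = 0.25, adjusted p = 1 over the 5 neighbour pairs tested). Cspg4 minus Rgs5 was 0.11 ± 2.94 (exact p = 1), Rgs5 minus Des 0.81 ± 2.51 (exact p = 0.75) and Des minus Myh11 0.63 ± 1.49 (exact p = 0.5), each with an adjusted p of 1. The lowest pair with a value, Myh11 minus Tagln, was 0.26 ± 0.57 (exact p = 1, adjusted p = 1). The 3 remaining pairs were under the 3-count floor for both genes and were not compared. In mouse 4, Myl9 (3.66 TPM) lay below Cspg4 (7.49 TPM).

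Other genes of the smooth muscle program were examined from a list of 16. Of these, 8 had a median above 1 TPM, 7 exceeded 1 TPM in every mouse, and 3 (Actg2, Pln and Kcnmb1) had no count. The shares over all protein-coding genes were 44.2%, 30.1% and 29.4%. They were led by Tpm1, a tropomyosin that many cell types use, with 390, 461, 706 and 411 TPM, and included the actin- and myosin-binding caldesmon Cald1 (42.0 ± 15.9 TPM), Smtn (30.8 ± 15.7 TPM), Tpm2 (23.7 ± 15.8 TPM) and the light chain kinase Mylk (12.2 ± 5.75 TPM). Mylk phosphorylates the class of light chain that Myl9 encodes, and unlike Myl9 it ranged no further than 8.09 to 20.7 TPM. Smtn, or smoothelin, resembled Myl9 in that mouse 4 was lowest (40.7, 38, 37.0 and 7.38 TPM). Lmod1, an actin nucleator of smooth muscle, had 286, 27, 6 and 213 counts, highest in the 2 mice that were lowest in Myl9. In 3 of the 16 genes, at least 10 counts were reached in a single mouse. These were the phosphatase inhibitor Ppp1r14a with 62 counts in mouse 1, and the integrin Itga8 with 80 and calsequestrin Casq2 with 202 in mouse 4. Of protein-coding genes with 10 counts in at least 1 library, 15.9% had them in exactly 1. Mouse 4, the library that also held Myh11, had 38.1% of all such single-library genes.

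Among the regulators of smooth muscle genes, Myocd, the cofactor of serum response factor that drives smooth muscle differentiation, had 0, 0, 1 and 0 counts. Its widely expressed relatives were present, with Mrtfa at 2.31, 6.07, 4.28 and 3.59 TPM and Mrtfb at a mean of 0.681 ± 0.523 TPM. Srf itself had 1537, 0, 202 and 235 counts, or 30.2, 0, 4.04 and 7.86 TPM. The library without Srf counts, mouse 2, had the second-highest level of Myl9, and a link between these genes was not tested. The floor of Srf in that library was 0.0932 TPM, so Srf was below detection rather than shown to be absent. Of 8 regulators, 6 had a median above 1 TPM and 4 exceeded it in every mouse, against 44.2% and 30.1% of protein-coding genes. Klf4, a repressor of contractile genes in phenotypically switched smooth muscle, averaged 49.8 ± 17.6 TPM, and Fhl2, a LIM protein that binds serum response factor and other factors, 88.7 ± 70.1 TPM.

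Pericyte genes beyond the 9 members were taken from a list of 14, and all had counts somewhere. Of these, 8 had a median above 1 TPM, against 44.2% of protein-coding genes, and 6 exceeded it in every mouse, against 30.1%. The metalloreductase Steap4 averaged 77.8 ± 49.8 TPM and the respiratory chain subunit Cox4i2 58.6 ± 25.7 TPM. The mitochondrial protein gene Ndufa4l2 had 114, 23.8, 44.5 and 19.8 TPM, with mouse 1 far above the others. Pdgfrb, the receptor through which pericytes are recruited to vessels, had 9.85, 99.6, 67.2 and 16.3 TPM. It was therefore highest in mouse 2, as was Rgs5, but was well expressed in mouse 3, where Rgs5 had no count. Abcc9, a subunit of the pericyte potassium channel, averaged 6.25 ± 3.05 TPM, whereas Kcnj8, which encodes the pore of that channel, had 33 counts in mouse 3 and none elsewhere.

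Within this list, mouse 3 had the most genes with at least 10 counts. All 14 genes reached that number there, compared with 10, 8 and 8 in mice 1, 2 and 4. The matching shares of all protein-coding genes in each library were not computed. In mouse 3 alone, 4 of the 14 genes reached 10 counts (Kcnj8 with 33, the aminopeptidase Anpep with 104, Higd1b with 186 and vitronectin Vtn with 175). Of protein-coding genes with 10 counts in at least 1 library, 15.9% had them in exactly 1. Mouse 3 was also the library with the most genes above 0 and held 29.4% of the single-library genes, and the part of that in the pericyte counts was not tested. Des was highest in the same mouse, whereas Rgs5 and Myh11 were at 0 in it. Notch3, a receptor that mural cells need for their maturation, had 31, 7, 1176 and 429 counts. The highest values of Rgs5 and Des thus fell in mice 2 and 3, and those of both Cspg4 and Myh11 in mouse 4.

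**Figure D3:**
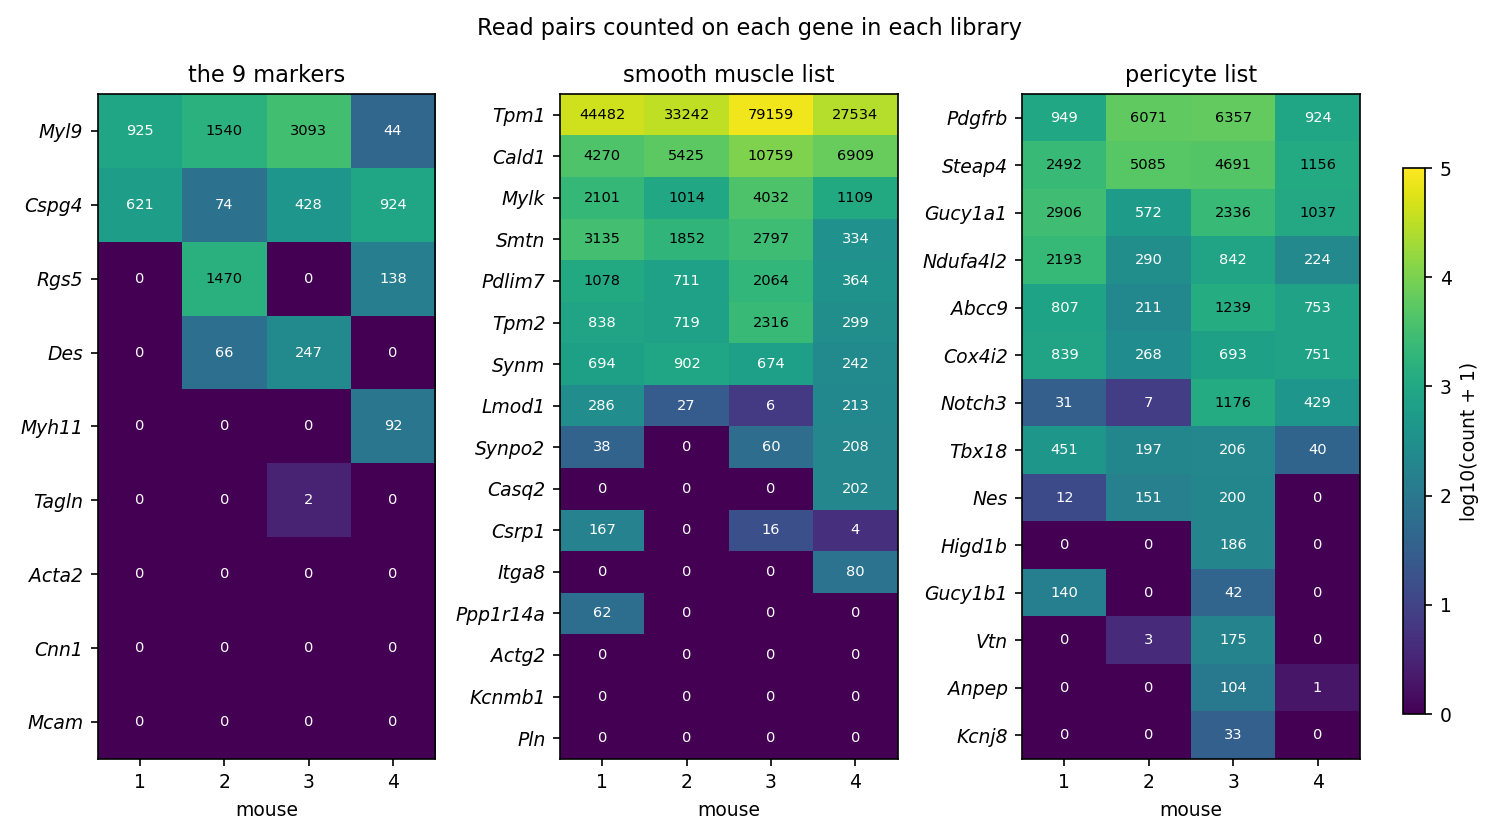
For the 9 members, the other smooth muscle genes and the other pericyte genes, each cell gives the counted read pairs of 1 gene (row) in 1 of the 4 mice (column), coloured by log10(count + 1). Mouse 3 has at least 10 counts for all 14 genes of the pericyte list, whereas Rgs5 has 0 counts there and 1470 in mouse 2.

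Markers of other cells that could carry or resemble mural transcripts were read alongside. None of 5 endothelial markers had a median above 1 TPM, against 44.2% of protein-coding genes, and Cdh5 and Kdr had no count. Tek had 0, 58, 0 and 42 counts, and the summed level of the list ran from 0.0465 to 1.28 TPM. Tek counts thus occurred in mice 2 and 4, the 2 libraries with Rgs5, and the part of this in the Rgs5 values was not tested. For skeletal muscle, which also contains desmin, 4 of 7 markers (Ckm, Tnnt3, Myod1 and Pax7) were at 0, against 29.4% of protein-coding genes. Mylpf, with 588, 0, 123 and 0 counts, was the 1 with a median above 1 TPM. Of the 2 mice with Des, mouse 3 had Mylpf counts and mouse 2 had none, and in mouse 1, where Mylpf was highest, Des was at 0. The part of skeletal muscle RNA in the Des values was not tested. Cardiac markers summed to 1 count over all libraries. Sox10, which defines Schwann cells among the lists read here, had 1, 0, 0 and 0 counts and was thus at 0 in mouse 4, the library highest in Cspg4. The part of Schwann cell RNA in the Cspg4 values was not tested.

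Genes whose pattern over the 4 mice lay closest to that of the 3 expressed members were looked up among the other 9683 protein-coding genes with a median above 1 TPM, by the root mean square distance of centred log2(TPM + 1) profiles. For Myl9 these were Mapk1ip1 (distance 0.20), Msantd3 (0.25) and the toll-like receptor gene Tlr2 (0.26). For Cspg4 they were Gm14410 (0.12), the methyltransferase gene Smyd3 (0.15) and Gclm (0.16), a subunit of the enzyme that starts glutathione synthesis. For Rgs5 they were Zfp583 (0.18), the protease inhibitor gene Serpina3n (0.23) and the organic anion transporter Slco2b1 (0.31). Serpina3n had 9.17, 276, 10.5 and 54.2 TPM and thereby shared with Rgs5 a peak in mouse 2 and a second rank for mouse 4. None of these 9 genes is in the smooth muscle or pericyte list, and with 4 points and 9683 genes searched such likeness is a description only.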

How the data were processed

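The authors aligned 100 bp read pairs from oligo-dT primed, PCR-amplified full-length cDNA to GRCm39 with STAR 2.7.10 and counted uniquely mapped pairs on exons of Ensembl genes with featureCounts (Subread 1.6.5), with no strand option among the stated parameters. The raw counts were deposited per gene for the 4 MSC libraries. Macrophage libraries were not analysed here. TPM were computed from these counts with union exon lengths of GENCODE M21 (GRCm38), joined by Ensembl identifier, for 52125 of 56980 genes (96.1% to 98.2% of the counts of a library), so lengths come from another build than the counts and no coordinate was converted. A pseudocount of 1 was added before log2, and 3 counts were taken as the detection floor. Within-mouse differences between genes were tested by exact sign-flip permutation. The separate mice are the replicates, and their number limits the precision more than the depth. Near-identical transcripts were searched for with BLAST 2.17.0 (at least 95% identity over 100 bases), and promoters were read from RefSeq. Python 3.11.15 with numpy 2.4.6, pandas 2.3.3 and matplotlib 3.10.9 was used, and edgeR 4.0.16 in R 4.3.3 gave TMM factors for 1 alternative, while no count model was fitted. The code was tested on simulated data.

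The 9 members, the gene lists and the tests were chosen with earlier results of these data known. The named genes are the members, their relatives, the fixed lists of smooth muscle, regulator, pericyte and other cell type genes, and the 3 genes nearest in pattern to each member with a median above 1 TPM; the overlapping genes beside Tagln and the order of mice were added after values were seen. Alternatives covered gene length, scaling, denominator, pseudocount, cutoff, a filter on low counts, the summary over mice and the removal of each mouse in turn. Some marker genes of these lists are not reported here.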

Additional observations from a re-analysis of the deposited data

Results flagged for a closer look

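In 11 of 50 genes from the members, relatives and lists (22%), 1 mouse stood apart from the other 3 by a gap, taken as a share of the whole range over mice, that a set of 4 normally distributed values exceeds in about 1 in 20 cases. Over all 13739 protein-coding genes with at least 3 counts in a library the share was 23.7%, so the genes named here stood apart about as often as others. A gene found in 1 library and at 0 in the rest has a gap of 1 by construction, and 8 of the 11 had at least 10 counts in exactly 1 library. Among the 5 members tested, Myh11 stood apart with a gap of 1 (0 counts in 3 mice, 92 in mouse 4) and Rgs5 with 0.899 (29.1 TPM in mouse 2, at most 2.94 TPM elsewhere).

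In the pericyte list, mouse 3 was the high library for Higd1b (gap 1, 186 counts), Kcnj8 (1, 33 counts), Anpep (0.984, 104 counts) and Vtn (0.973, 175 counts). In the smooth muscle list, mouse 4 was the high library for Casq2 (gap 1, 202 counts) and Itga8 (1, 80 counts), and mouse 1 for Ppp1r14a (1, 62 counts) and Csrp1 (0.902, 167 counts). Smtn was the 1 gene set apart by a low value, with 7.38 TPM in mouse 4 against 37.0 to 40.7 TPM in the others (0.888).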

How the results depend on the processing

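No paired analysis was possible because the data form 1 group. The number of members with a median above 1 TPM, 3 as reported, was 1 (Myl9) at a cutoff of 5 TPM, 4 with CPM or the mean over mice, 2 when at least 10 counts were also asked of every library, and 2 to 4 when a mouse was left out. The number above the cutoff in every mouse, 1 as reported, was 2 in CPM, 0 at 5 TPM and 1 to 2 with a mouse left out, the 2 being Myl9 and Cspg4 without mouse 2. The 6 differences from non-muscle relatives kept their direction in 66 of 66 alternative values, with Myl9 minus Myl12a nearest to 0 (-3.07 to -0.68). Of 55 alternative values for neighbouring members 6 changed sign: Cspg4 minus Rgs5 was -0.20 with a pseudocount of 10 and ran from -0.51 to 1.57 with a mouse left out, Rgs5 minus Des from -0.10 to 1.84, and Myh11 minus Tagln from -0.027 to 0.37. Their cause was not tested. With 4 libraries of 100 cells each, genes at 0 counts are bounded by their floor and not shown to be absent.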
